A study of Mus musculus with 8 samples.

Results

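The 10 genes described here encode the ATP-binding cassette (ABC) transporters by which the liver exports bile salts, phospholipid, sterols, conjugates and drugs: Abcb1a, Abcb1b, Abcb4, Abcb11, Abcc2, Abcc3, Abcg2, Abcg5, Abcg8 and Abca1. They were taken by gene symbol from a deposited table of 19348 genes, and all 10 were found, each on a single row. All 10 also passed the filter on low counts, which asks for 3 libraries above a minimum CPM. Abcb1b passed it through the 3 wild-type libraries, where it is high, with 1 knockout library above the minimum, while the other 9 were above it in every library. Liver RNA of mice aged 5 weeks was sequenced, in 5 libraries from Stab1 knock-out and 3 from wild-type mice. The product of Stab1, stabilin-1, is an endocytic receptor that liver sinusoidal endothelium and certain macrophages carry. The labels name no strain, sex, treatment or allele design. They also leave unsaid whether each library is a different animal, so a p-value here weighs a difference against library spread that may be partly technical.

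ABC exporters use ATP to move their substrates out of the cell against a gradient. Hepatocytes carry most of them on the canalicular membrane, where they form bile, and a few on the blood-facing side, where they return conjugates to the circulation or load lipid onto high-density lipoprotein. Their genes are known to answer to nuclear receptors for bile acids (FXR), oxysterols (LXR) and drugs (PXR and CAR).

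Levels are given as CPM (counts per mega reads, after trimmed-mean (TMM) adjustment of library sizes) when libraries are compared. RPKM, which also divides by gene length, is used when genes are compared. Differences are log2 fold changes of knockout minus wild type with their standard error (SE) from edgeR's quasi-likelihood test. Adjusted p-values are Benjamini-Hochberg values over all 12338 tested genes, with a call at 0.05.

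The libraries held 4.85 M to 10.8 M (mega) counted reads. Stab1 had 5 to 16 reads in knockout and 474 to 594 reads in wild-type libraries. Knockout library 1 had the fewest reads and differed in sex-linked genes. Its Xist count was 3, against 4445 to 8222 elsewhere, and its count of Y-linked Ddx3y was 320, against 0 to 4, so by these reads it was male and the others female. The log2 fold change of each exporter is therefore given with and without it. Wild-type library 3 also differed from the other wild-type libraries in several exporters. Long genes took a smaller share of reads in knockout libraries 2 to 5, where log2 level changed by -0.14 to -0.01 per doubling of gene length, and in wild-type library 3 (-0.04). Wild-type libraries 1 and 2 had slopes of 0.17 and 0.13, and knockout library 1 had 0.09.

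None of the 10 exporter genes passed an adjusted p of 0.05 with all libraries. Over all genes 28 were called, or 0.227% of those tested, and 13.6% had an unadjusted p below 0.05. Among the exporters 2 had an unadjusted p below 0.05, Abcb1b and Abcc2, both lower in knockout liver. By log2 fold change 5 members were positive and 5 negative, with a median of 0.02 against -0.01 over all tested genes. Without knockout library 1, edgeR called 1 member, Abcb1b. In that fit 0.928% of all tested genes were called and 25.5% had an unadjusted p below 0.05. DESeq2's Wald test called the same single member with all libraries (0.884% of all genes). DESeq2 without knockout library 1 called 3 members, Abcb1b, Abcc2 and Abca1, all lower, in a fit that called 8.61% of all genes.

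The promoters of these 3 genes, which had the smallest p-values among the members, are shown first, with the stretch shared by Abcg5 and Abcg8, whose levels moved together. Each is RefSeq sequence of build GRCm38.p6, 5′ to 3′. The first 3 are the 250 bases before the gene's start on its own strand, and the last lies between the starts of Abcg5 and Abcg8, which are read away from each other, on the plus strand. The RefSeq table held promoters of 9 of the 10 members. The build used by the authors is not given in the sources used here, so these coordinates belong to RefSeq only. Capitals mark matches on either strand to any of 4 motifs, which are CCAAT, the GC box GGGCGG, the TATA-like word TATAAA and the E-box CACGTG.
Abcb1b, chr5:8797897-8798146, plus strand: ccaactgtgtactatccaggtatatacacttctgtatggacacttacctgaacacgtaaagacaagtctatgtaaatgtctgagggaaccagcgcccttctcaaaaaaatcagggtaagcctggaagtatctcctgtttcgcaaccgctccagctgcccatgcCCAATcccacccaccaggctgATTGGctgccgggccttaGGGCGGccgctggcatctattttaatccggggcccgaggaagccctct
Abcc2, chr19:43782058-43782307, plus strand: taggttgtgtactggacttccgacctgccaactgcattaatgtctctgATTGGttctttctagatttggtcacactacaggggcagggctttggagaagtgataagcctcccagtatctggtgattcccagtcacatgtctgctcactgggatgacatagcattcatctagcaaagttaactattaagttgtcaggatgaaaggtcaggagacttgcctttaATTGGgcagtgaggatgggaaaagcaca
Abca1, chr4:53159896-53160145, minus strand: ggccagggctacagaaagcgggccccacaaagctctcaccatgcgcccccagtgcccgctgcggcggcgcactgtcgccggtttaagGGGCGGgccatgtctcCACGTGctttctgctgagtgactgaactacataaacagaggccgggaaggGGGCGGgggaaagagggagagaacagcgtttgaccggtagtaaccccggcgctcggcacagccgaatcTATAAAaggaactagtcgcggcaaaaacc
Abcg5-Abcg8, chr17:84683012-84683120, plus strand: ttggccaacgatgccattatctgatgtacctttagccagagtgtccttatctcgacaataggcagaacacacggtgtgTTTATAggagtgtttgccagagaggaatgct

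In the Abcb1b window CCAAT matched 2 times and the GC box 1 time, all within 87 bases of the start. Of 32851 RefSeq promoter windows of the same 250 bases, 33.8% held CCAAT on either strand and 32.7% held the GC box, so each is common. The Abca1 window held the GC box 2 times, an E-box (6.02% of windows) and TATAAA 29 bases before its start. TATAAA at any position and on either strand was held by 12.4% of windows. The 109 bases between Abcg5 and Abcg8 held TATAAA on the minus strand, the strand of Abcg5, but 31 to 26 bases before the start of Abcg8. The word thus lay nearer to the start of Abcg8 than to that of Abcg5. At any position and on either strand, 5.90% of windows of that length held it.

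**Figure D1:**
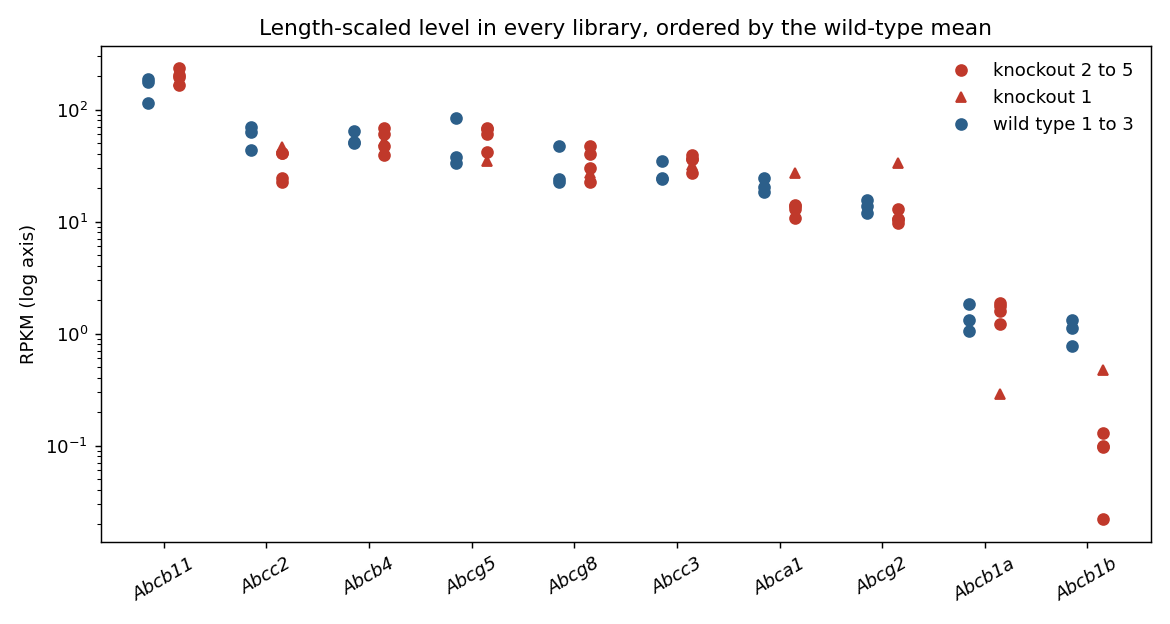
Length-scaled level (RPKM, log axis) of each exporter gene in every library, ordered by the wild-type mean, with wild-type libraries in blue and knockout libraries in red (triangle: knockout library 1). Abcb11 lies above all other members, Abcb1a and Abcb1b lie lowest, and the knockout points of Abcb1b fall below its wild-type points.

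Per length, Abcb11 was the highest exporter in wild-type liver, at 158 ± 38.0 RPKM (SD, n = 3). Below it stood Abcc2 (58.7 ± 13.8 RPKM), Abcb4 (55.4 ± 7.41), Abcg5 (52.0 ± 28.2), Abcg8 (31.3 ± 13.9), Abcc3 (27.8 ± 6.09) and Abca1 (21.0 ± 2.96), and each neighbouring pair from Abcc2 to Abca1 overlapped in its wild-type range. Abcg2 followed at 13.7 ± 1.85 RPKM, below every wild-type value of Abca1. Both drug exporter genes were far lower, at 1.41 ± 0.399 RPKM for Abcb1a and 1.07 ± 0.277 for Abcb1b, with overlapping ranges. Abcb11 exceeded 96.1% of tested genes in wild-type mean RPKM, whereas Abcb1a exceeded 19.4% and Abcb1b 15.4%. In knockout liver Abcb11 was also highest (196 ± 25.05 RPKM, SD, n = 5) and Abcb1b lowest (0.165 ± 0.178).

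**Figure D2:**
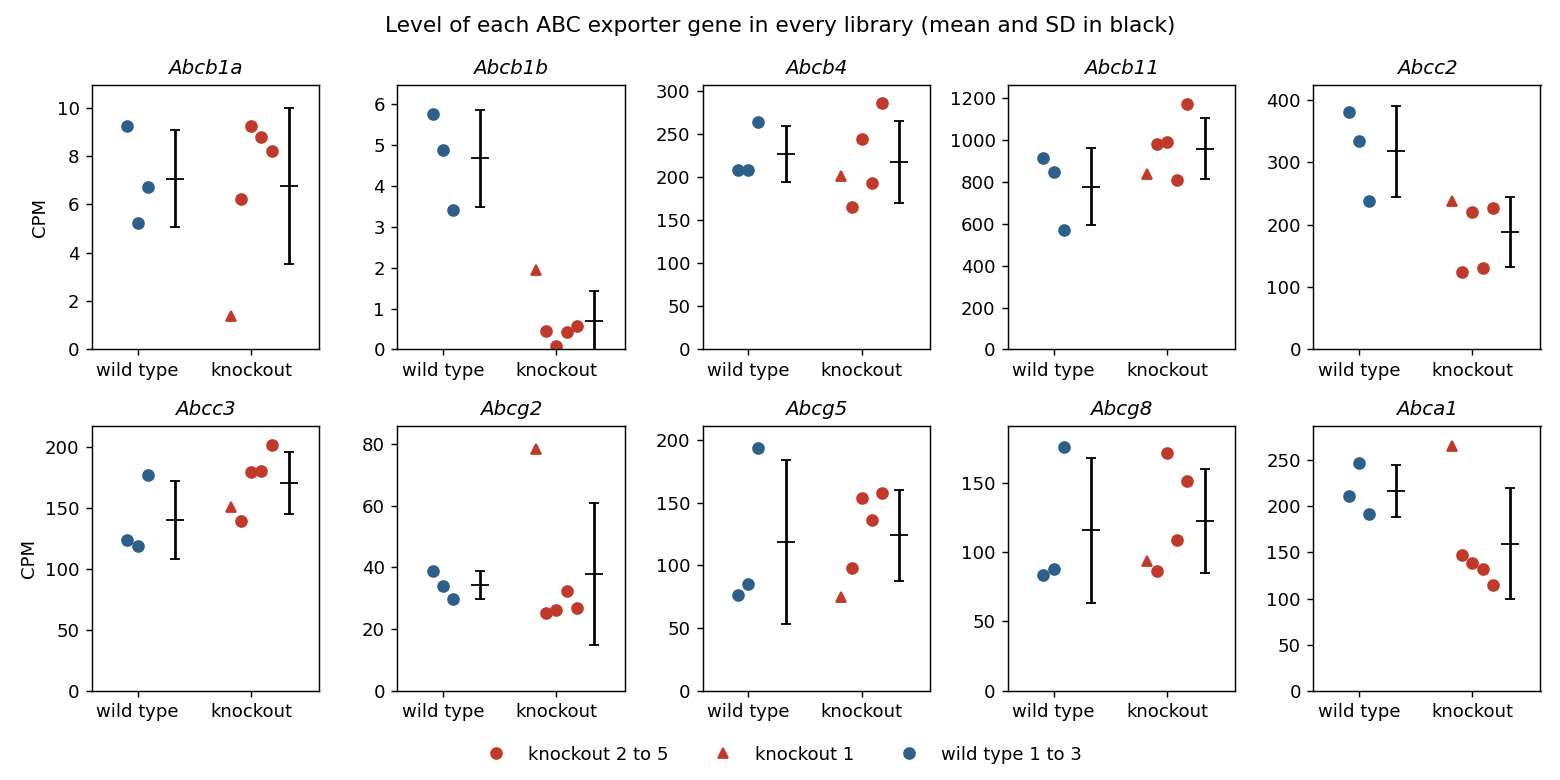
CPM of each exporter gene in every library, with the group mean and SD in black beside the points (wild type n = 3 in blue, knockout n = 5 in red, triangle: knockout library 1). All knockout points of Abcb1b lie below its wild-type points, and knockout library 1 stands apart from knockout libraries 2 to 5 in Abcg2, Abca1, Abcb1a and Abcb1b.

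Abcb1a and Abcb1b are the pair of rodent genes for P-glycoprotein, the multidrug exporter for lipophilic drugs and toxins, and they lie next to each other and to Abcb4 on chromosome 5. Abcb1b (gene identifier 18669) held 61, 53 and 34 reads in wild-type libraries 1 to 3. Knockout libraries 1 to 5 held 10, 4, 1, 4 and 5 reads. In CPM these are 5.75, 4.88 and 3.40 in wild type against 1.95, 0.445, 0.0942, 0.423 and 0.576 in knockout. Every knockout library lay below every wild-type library, as was true of 3.62% of tested genes. Abcb1b was tested only because its 3 wild-type libraries passed the minimum CPM, against 1 knockout library. The filter thus favoured this separation, and the share does not measure how unusual it is. Exact 95% Poisson intervals of the single libraries, which cover counting error only, reached up to 3.59 CPM in knockout library 1 and down to 2.36 CPM in wild-type library 3, so these 2 could not be separated at this depth. Abcb1b reads covered 31.7% to 46.9% of the gene in wild-type libraries and 1.13% to 11.3% in knockout libraries.

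On average Abcb1b stood at 4.68 ± 1.19 CPM (SD, n = 3) in wild-type liver, against 0.698 ± 0.723 CPM (SD, n = 5) without Stab1. Its log2 fold change was -2.95 (SE 0.53, unadjusted p = 2.25e-04), but the edgeR adjusted p of 0.0791 missed the threshold. Without knockout library 1 the difference was -3.61 (SE 0.41, edgeR adjusted p = 0.00352), and 0.513% of all genes were called lower in that fit. With 1 to 5 reads in knockout libraries 2 to 5, Abcb1b entered that fit through its wild-type level alone, so a gene at this knockout level could be tested there only if it was higher in wild type. The same limit bears on the main fit and its p-value, where 1 knockout library passed the minimum. Without wild-type library 3 Abcb1b was also called (-3.15, edgeR adjusted p = 0.0466; 0.745% of all genes called), while without wild-type library 1 or 2 the adjusted p was 0.484 and 0.346. Without knockout library 2, 3, 4 or 5 it was not called (edgeR adjusted p of 0.264, 0.136, 0.286 and 0.236). Nor was it with the replicate number as a block (0.632) or with a correction for gene length (0.0819). Of 16 alternatives to the main fit, 6 called it. With no filter on low counts edgeR called it too (-2.96, adjusted p = 0.0411; 0.2% of all genes called). DESeq2 called it with all libraries (-2.91, DESeq2 adjusted p = 2.46e-04). Pooled over libraries, the wild-type share of reads was 8.38 times the knockout share, with an exact 95% counting interval of 5.42 to 13.5, and 12.7 times (7.36 to 23.9) without knockout library 1. These intervals cover counting error only and leave out the spread between libraries. In the main edgeR fit, which includes that spread, the 95% interval of the log2 fold change was -4.14 to -1.77.

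Abcb1a (identifier 18671) overlapped between the groups. Wild-type libraries 1 to 3 stood at 9.24, 5.25 and 6.70 CPM. Knockout libraries 2 to 5 stood at 6.24, 9.23, 8.78 and 8.19 CPM, across the wild-type range, and knockout library 1 at 1.37 CPM from 7 reads. The log2 fold change was -0.03 (SE 0.42, edgeR adjusted p = 0.982), with a 95% interval of -0.97 to 0.91, and 0.19 (SE 0.23, edgeR adjusted p = 0.616) without knockout library 1. Reads were counted where they mapped uniquely, and 18.0% of the 50-base windows of the longest GENCODE Abcb1b transcript also occur in Abcb1a transcripts (15.5% in the other direction). Levels of both genes are uncertain to that extent, and reads from the shared windows could not be told apart.

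Inside a library the Abcb1b to Abcb1a ratio, by RPKM, was 0.713, 1.07 and 0.581 in wild-type libraries 1 to 3. It was 0.0818, 0.0117, 0.0552 and 0.0807 in knockout libraries 2 to 5 and 1.64 in knockout library 1. Abcb1b thus made up 36.8% to 51.6% of the pair in wild-type libraries, 1.16% to 7.56% in knockout libraries 2 to 5 and 62.1% in knockout library 1. The mean log2 ratio differed by -3.03 with all libraries (exact two-sided permutation p = 0.125) and by -4.07 without knockout library 1 (exact permutation p = 0.0286, the smallest that 35 divisions allow). Adjusted over the 4 ratios examined, which were chosen after the values were seen, these were 0.25 and 0.0571.

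By the naming rule, the 3 tested genes whose log2 CPM was most like that of Abcb1b over the 8 libraries were Kif23 (Pearson r = 0.96), which encodes a mitotic kinesin, Numb (r = 0.95), an endocytic adaptor that restrains Notch, and Tor3a (r = 0.95), a torsin family ATPase. These are the highest correlations among all tested named genes, over libraries of the same 2 groups, and are given as description. None of the 3 was called between genotypes (log2 fold changes -0.83, -0.24 and -0.47, edgeR adjusted p of 0.332, 0.380 and 0.332).

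Abcb11, the bile salt export pump that drives bile flow, was somewhat higher on average in knockout liver without passing the test. Wild-type libraries 1 to 3 stood at 915, 850 and 571 CPM and knockout libraries 1 to 5 at 839, 984, 990, 811 and 1174 CPM. The groups overlapped, and wild-type library 3 was the lowest of all. The log2 fold change was 0.30 (SE 0.20, edgeR adjusted p = 0.480), 0.34 without knockout library 1 (edgeR adjusted p = 0.289) and 0.12 without wild-type library 3 (edgeR adjusted p = 0.703). Abcb4, which flips phosphatidylcholine into bile and so protects the ducts from bile salts, had a mean of 227 ± 32.3 CPM over the wild-type (SD, n = 3) and 218 ± 47.5 CPM over the knockout libraries (SD, n = 5). Its log2 fold change was -0.06 (SE 0.20, edgeR adjusted p = 0.898; 95% interval -0.49 to 0.38), and -0.036 without knockout library 1 (edgeR adjusted p = 0.925). No correlation between these partners of bile formation was detected over the 8 libraries (Pearson r = -0.03, exact permutation p = 0.944; Spearman rho = 0.24, exact permutation p = 0.582; adjusted over 3 pairs 0.944 and 0.703). The r without the 2 libraries farthest from the Abcb11 median, wild-type library 3 and knockout library 5, was 0.073, and without knockout library 1 it was -0.049. Within the 5 knockout libraries alone r was 0.65 and rho 0.7, values given without a test. Abcb11 stood 3.38 to 4.95 times above Abcb4 in RPKM in the knockout libraries and 3.66, 3.39 and 1.80 times in wild-type libraries 1 to 3 (exact permutation p = 0.25, adjusted 0.333; without knockout library 1 p = 0.343, adjusted 0.429).

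Abcc2, the canalicular exporter of bilirubin glucuronide and glutathione conjugates, was lower in knockout liver with a smaller margin than Abcb1b. Wild-type libraries 1 to 3 stood at 380, 334 and 237 CPM. Knockout libraries 1 to 5 stood at 237, 124, 220, 130 and 227 CPM. The lowest wild-type library, number 3, and the highest knockout library, number 1, met at 237 CPM, and the other knockout libraries lay below all wild-type libraries, as did 8.87% of tested genes without knockout library 1. For Abcc2 the log2 fold change was -0.76 (SE 0.26, edgeR adjusted p = 0.332), or -0.86 (SE 0.25, edgeR adjusted p = 0.0907) without knockout library 1. DESeq2 without that library called it (-0.85, DESeq2 adjusted p = 0.0207).

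Abcc3 exports glucuronides across the blood-facing membrane and is known to rise in cholestasis. Its mean was 140 ± 31.9 CPM over wild-type (SD, n = 3) and 170 ± 25.1 CPM over knockout libraries (SD, n = 5), which gave 0.29 on the log2 scale (SE 0.18, edgeR adjusted p = 0.477). Wild-type libraries 1 and 2, at 124 and 119 CPM, lay below every knockout library (139 to 202 CPM), and wild-type library 3, at 176 CPM, lay among them. The log2 fold change of Abcc3 was 0.32 without knockout library 1 (edgeR adjusted p = 0.298), and without wild-type library 3 it was 0.49 (edgeR adjusted p = 0.173). The ratio of Abcc2 to Abcc3 by RPKM was 2.85, 2.61 and 1.25 in wild-type libraries 1 to 3 and 0.672 to 1.46 in knockout libraries. The mean log2 ratio was different by -1.08 in knockout liver (exact two-sided permutation p = 0.0357, adjusted over 4 ratios 0.143), and without knockout library 1 by -1.22 (exact permutation p = 0.0286, adjusted 0.0571). This ratio was also chosen after the values were seen, so its p-values are given as description. The p of 0.0286 is the smallest that 35 divisions allow.

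Abcg2, the breast cancer resistance protein that exports sulfate conjugates and urate, was high in knockout library 1 alone. It stood at 78.5 CPM there, at 25.1, 26.2, 32.2 and 26.9 CPM in knockout libraries 2 to 5, and at 38.9, 34.1 and 29.8 CPM in wild-type libraries 1 to 3. On the log2 scale knockout minus wild type was 0.13 (SE 0.36, edgeR adjusted p = 0.880) with all libraries and -0.32 (SE 0.15, edgeR adjusted p = 0.210) without knockout library 1. Its direction thus turned with that 1 library, and neither fit called it.

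**Figure D3:**
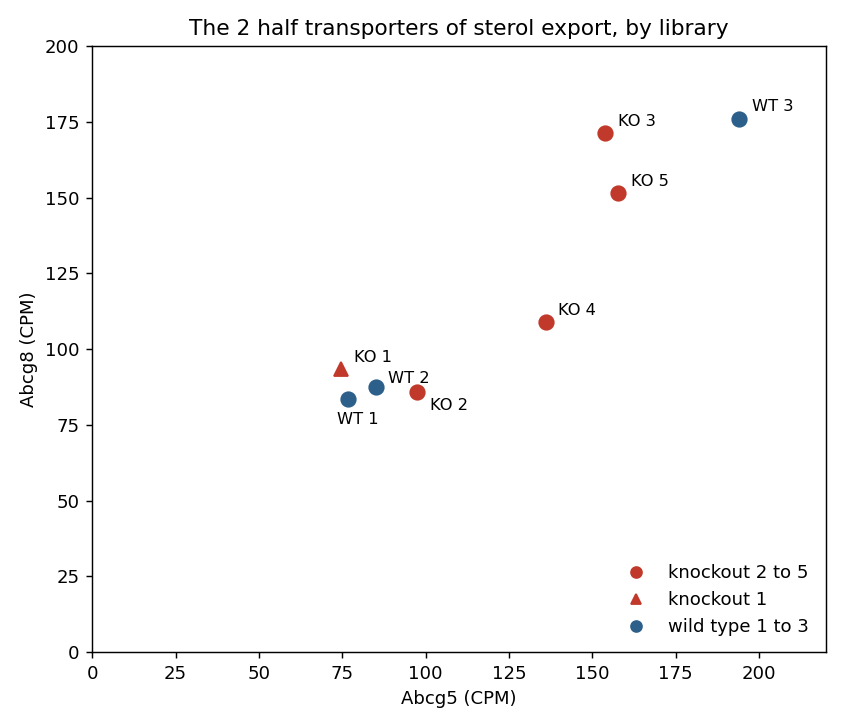
Abcg8 against Abcg5 in CPM, 1 point per library (red: knockout, triangle: knockout library 1, blue: wild type). The points climb together from wild-type library 1 to wild-type library 3, which hold the lowest Abcg8 and the highest of both genes. Knockout library 1, at 74.8 CPM, holds the lowest Abcg5, and the other knockout libraries lie between.

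Abcg5 and Abcg8 encode the partner subunits that pair to export cholesterol and plant sterols into bile, and they lie head to head across the sequence shown above. Abcg5 stood at 76.6, 85.1 and 194 CPM in wild-type libraries 1 to 3 and at 74.8, 97.5, 154, 136 and 158 CPM in knockout libraries 1 to 5. Abcg8 stood at 83.5, 87.5 and 176 CPM in wild-type libraries 1 to 3 and at 93.3, 86.0, 171, 109 and 151 CPM in knockout libraries 1 to 5. Wild-type library 3 was the highest of all 8 in both genes, while the other wild-type libraries were near the bottom.

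The sterol exporter pair varied widely within genotype, and its group means lay close together. Between genotypes the log2 fold change was 0.07 (SE 0.34, edgeR adjusted p = 0.935) for Abcg5 and 0.08 (SE 0.30, edgeR adjusted p = 0.910) for Abcg8. Their 95% intervals ran from -0.69 to 0.82 and from -0.60 to 0.76. These values were 0.20 and 0.16 without knockout library 1 (edgeR adjusted p of 0.706 and 0.762). Without wild-type library 3 they were 0.62 and 0.52 (edgeR adjusted p of 0.240 and 0.293). Over the 8 libraries their log2 CPM had a Pearson r of 0.92 (exact permutation p = 0.00285, adjusted over 3 pairs 0.00856) and a Spearman rho of 0.81 (exact permutation p = 0.0218, adjusted 0.0653). Leaving out the libraries farthest from the Abcg5 median, wild-type library 3 and knockout library 1, gave an r of 0.92 (n = 6, exact permutation p = 0.0236). Without knockout library 1 alone r was 0.94 (n = 7, exact permutation p = 0.00516). For the neighbours Abcb1a and Abcb1b r was -0.26 (rho -0.17; exact permutation p = 0.651 and 0.703, adjusted 0.944 and 0.703), with -0.08 when knockout library 1 and wild-type library 2 were left out and -0.39 without knockout library 1 alone. Within the 5 knockout libraries, without a test, r was 0.84 for Abcg5 and Abcg8 and -0.89 for Abcb1a and Abcb1b. Abcb1b held 1 to 10 reads in those libraries. The Abcg5 to Abcg8 ratio by RPKM was 1.66 ± 0.291 in knockout (SD, n = 5) and 1.62 ± 0.154 in wild-type libraries (SD, n = 3; exact permutation p = 0.893, adjusted 0.893), and without knockout library 1 p was 0.429 by the same exact test.

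Abca1 transfers cholesterol and phospholipid to apolipoprotein A-I to form high-density lipoprotein, and its gene is the longest of the 10, at 10.26 kb in the deposited table. Wild-type libraries 1 to 3 stood at 211, 247 and 192 CPM. Knockout libraries 2 to 5 stood at 147, 139, 132 and 114 CPM, below all wild-type libraries, and knockout library 1 at 265 CPM, above all of them. With knockout library 1 left out, 8.87% of tested genes were likewise lower in every knockout library. The log2 fold change was -0.44 (SE 0.26, edgeR adjusted p = 0.440), and -0.71 (SE 0.15, edgeR adjusted p = 0.0570) without knockout library 1. DESeq2 called Abca1 without that library (-0.70, DESeq2 adjusted p = 0.00123). With a correction for gene length as well, edgeR gave -0.46 (adjusted p = 0.135) for Abca1, against -0.71 (adjusted p = 0.123) for Abcc2 and -3.48 (adjusted p = 0.00400, with 0.594% of all genes called) for Abcb1b.

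**Figure D4:**
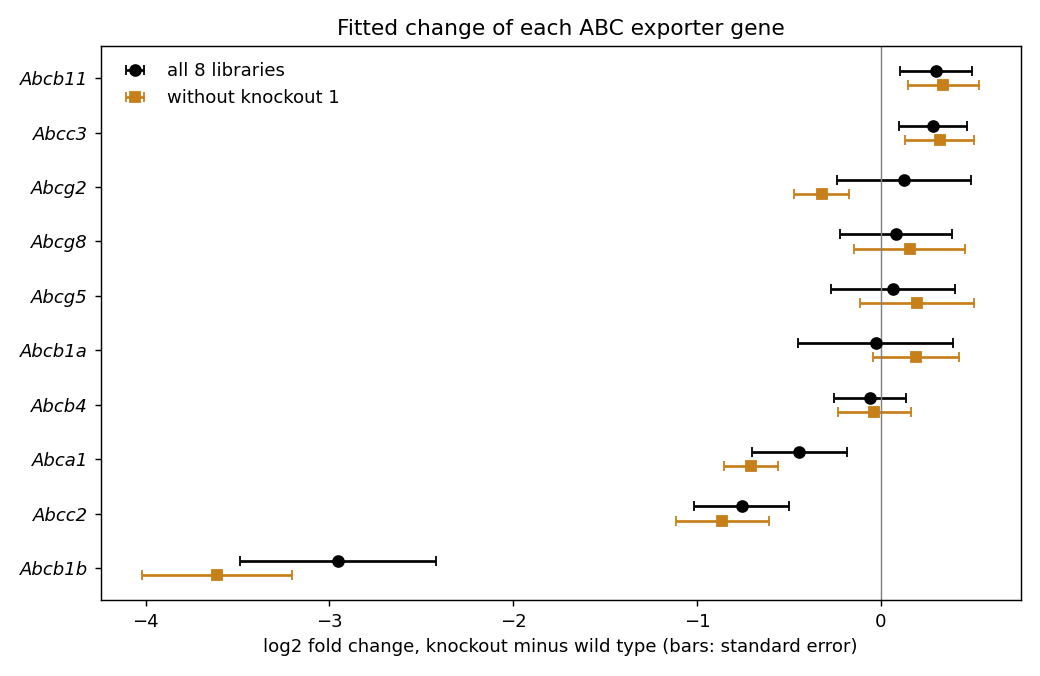
Log2 fold change of knockout minus wild type with its standard error for each exporter gene, from edgeR with all 8 libraries (black) and without knockout library 1 (orange). Abcb1b lies at -2.95 and -3.61, Abcc2 and Abca1 lie below 0 in both fits, and Abcg2 changes side.

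The table held 37 other ABC family genes, of which 29 passed the filter. None was called by edgeR, with all libraries or without knockout library 1 (unadjusted p below 0.05 in 3 and 5), and DESeq2 called 0 and 2 in these settings, where it called 0.884% and 8.61% of all genes. In 24 of the 29 the log2 fold change was below 0, beside 6282 of all 12338 tested genes, and the median was -0.16 against -0.01 over all tested genes. With the gene length correction 16 of 29 were negative, with a median of -0.04. Without knockout library 1, 25 of 29 were negative (median -0.22), and 21 of 29 with the length correction as well (median -0.05). The part of gene length in this lean was not tested. The smallest p-values belonged to Abcc9, the sulfonylurea receptor subunit of potassium channels in vessels (17.5 ± 1.62 CPM in knockout against 26.3 ± 5.61 in wild type, log2 fold change -0.59, edgeR adjusted p = 0.297), and Abca3, a lipid transporter best known from lung (-0.87, edgeR adjusted p = 0.332).

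**Figure D5:**
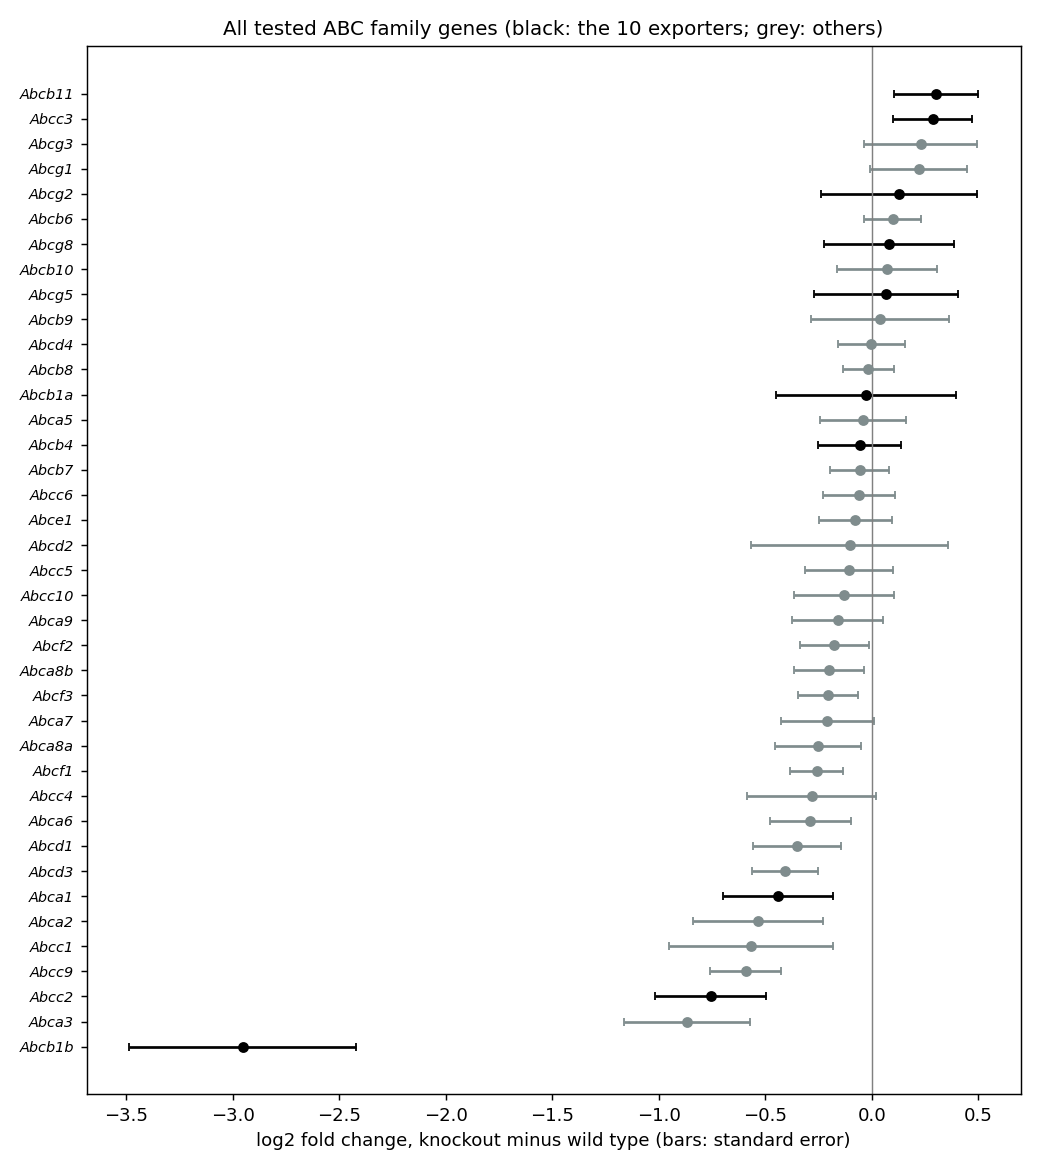
Log2 fold change with standard error for all 39 tested ABC family genes, from edgeR with all 8 libraries (black: the 10 exporters, grey: the 29 others). Abcb1b is the farthest from 0, and 24 of the 29 grey points lie below 0.

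Among 19 tested uptake carriers and canalicular partners edgeR and DESeq2 called none with all libraries (edgeR unadjusted p below 0.05 in 3). Without knockout library 1 the drug and bile salt carrier Slco1a4 rose, from 80.0 ± 17.4 CPM in wild type (SD, n = 3) to 176 ± 25.2 CPM in knockout liver (SD, n = 4; log2 fold change 1.13, edgeR adjusted p = 0.0270). That 1 call of 19 stands beside 0.928% of all genes, and DESeq2 in the same libraries called 2 higher and 1 lower, beside 8.61% of all genes. The copper exporter gene Atp7b (-0.75) and the vesicle GTPase gene Rab11a (0.43) had the smallest p with all libraries (edgeR adjusted p of 0.327 and 0.356).

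None of 14 nuclear receptor and regulator genes was called by edgeR, with or without knockout library 1 (unadjusted p below 0.05 in 2 each time, beside 13.6% and 25.5% of all genes). DESeq2 called 0 and 1, beside 0.884% and 8.61% of all genes, which are also the shares for the lists that follow. Srebf2, the master regulator of cholesterol synthesis, was at -0.58 (edgeR adjusted p = 0.332), and Nr5a2, a regulator of bile acid synthesis, at -0.49 (0.349). Of 12 LXR targets edgeR called none in either fit (unadjusted p below 0.05 in 3 and 4) and DESeq2 0 and 4 (0.884% and 8.61% of all genes), with 6 log2 fold changes positive and 6 negative. Lpl, lipoprotein lipase, was at 0.85 (edgeR adjusted p = 0.325) and Srebf1, which drives fatty acid synthesis, at -0.68 (0.338). None of 11 FXR targets was called by either tool in either set of libraries (edgeR unadjusted p below 0.05 in 1 and 2). Among them Sdc1, a heparan sulfate proteoglycan, was at -0.62 (edgeR adjusted p = 0.332) and Baat, which conjugates bile acids, at 0.41 (0.380).

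Targets of the drug receptors PXR and CAR gave 0 edgeR calls of 14 with all libraries (unadjusted p below 0.05 in 4) and 3 DESeq2 calls of 15, where DESeq2 called 0.884% of all genes. DESeq2 without knockout library 1 called 3 higher and 3 lower of 15, in the fit that called 8.61% of all genes. The drug-metabolising cytochrome P450 genes Cyp3a25 and Cyp3a11 had log2 fold changes of 0.89 and 1.15 (edgeR adjusted p of 0.187 and 0.238). Without knockout library 1 edgeR called 1 of 14 higher, Slco1a4, and 1 lower, Cyp2c29 (-0.73, edgeR adjusted p = 0.0439), with unadjusted p below 0.05 in 5. In that fit 0.928% of all genes were called and 25.5% had an unadjusted p below 0.05. Slco1a4 is the gene already named among the uptake carriers. With all libraries neither was called (edgeR adjusted p of 0.380 for Slco1a4 and 0.325 for Cyp2c29). Nrf2 targets gave 0 edgeR calls of 12 in both fits (unadjusted p below 0.05 in 1 each time), and DESeq2 called 0 and 1. Among them were Gclc, which makes glutathione precursor, at -0.55 (edgeR adjusted p = 0.333) and Srxn1, which repairs peroxiredoxins, at -0.24 (0.457).

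Among the cholesterol and lipoprotein partners of Abca1, Abcg5 and Abcg8 was Stard4, whose product carries sterol between membranes. It stood at 86.4 ± 9.35 CPM in wild-type (SD, n = 3) and 52.4 ± 8.09 CPM in knockout liver (SD, n = 5), with a log2 difference of -0.72 that edgeR did not call (adjusted p = 0.176). Without knockout library 1 Stard4 was called lower, by 0.81 on the log2 scale (edgeR adjusted p = 0.0379). That fit called 0.928% of all genes.

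Markers of liver and other cell types were summed in CPM to set beside the exporters. All 6 hepatocyte markers were present, and their sum was 69484 to 129920 CPM in knockout and 144730 to 152700 CPM in wild-type libraries. Most of that sum is albumin, Alb (46417 to 103690 against 117870 to 130230 CPM), and the sum of the other 5 overlapped, at 23067 to 28586 against 22468 to 27594 CPM. By log2 fold change 3 of the 6 were positive and 3 negative, with a median of -0.0040, and neither edgeR (unadjusted p below 0.05 in 0) nor DESeq2 called any with all libraries. Summed endothelial markers were also lower in each knockout library, at 172 to 214 against 231 to 289 CPM. Erythroid markers were higher by a narrow margin, at 71.7 to 195 against 67.2 to 70.7 CPM. Of single tested genes, 3.62% were lower in every knockout library, and the share that was higher is not given here. With all libraries neither edgeR nor DESeq2 called an endothelial or erythroid marker (edgeR unadjusted p below 0.05 in 1 and 3 of 6, beside 13.6% of all genes). Kupffer cell markers (361 to 557 against 302 to 416 CPM), cholangiocyte markers (56.6 to 132 against 53.9 to 65.0) and stellate cell markers (240 to 364 against 348 to 379) overlapped between groups. The cholangiocyte sum no longer overlapped without knockout library 1 (79.8 to 132 against 53.9 to 65.0 CPM), while the Kupffer and stellate sums still did. In those libraries edgeR called no endothelial, erythroid or cholangiocyte marker. DESeq2 called 1 endothelial marker lower, and 3 erythroid and 2 cholangiocyte markers higher, beside 8.61% of all genes. Adipose and mesothelial markers, with Plin1 at 0 reads, stood at 11.3 to 32.3 against 11.6 to 15.5 CPM. In bulk tissue fewer cells of a type and less RNA per cell cannot be told apart, and the part of these differences in the levels of Abcb1b, Abcc2 and Abca1 was not tested. Kidney markers had 4 of 6 genes at 0 reads and a sum of at most 0.445 CPM. The enterocyte list, which holds the liver-expressed gene Apoa4, stood at 188 to 678 against 324 to 525 CPM, with Cdh17 and Alpi at 0 reads.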

How the data were processed

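The authors deposited 1 gene table, which per the file headers gives each gene's count of uniquely mapped reads in every library, with totals that equal the column sums. The deposited RPKM values equal those recomputed from counts, totals and lengths. How much of a gene was covered by reads is given as a percent, per the file headers. RNA was isolated with a column kit and libraries were made at BGI, per the labels' protocols. For the aligner, counter, build and strandedness nothing is given in the sources used here.

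A dash was read as 0, and reads were summed for 113 gene identifiers standing on 229 rows. Counts were fitted in R 4.3.3 with edgeR 4.0.16 (filterByExpr, TMM scaling, quasi-likelihood F test, no covariate, 12338 genes). DESeq2 1.42.0 was an alternative. Tests on ratios and correlations used exact permutation in scipy 1.17.1, and log2 CPM used a prior count of 2. The gene length correction subtracts each library's loess trend (limma 3.58.1, span 0.3) of log2 level on log2 length. A floor of 3 reads is 0.619 CPM in knockout library 1 and 0.278 to 0.336 CPM elsewhere. No pair of libraries of a group agreed within sampling noise.

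Named genes were all 10 members, the called genes and the 2 with the smallest p of each other list, and the 3 genes most correlated with the member of smallest p. Part of the result for the cholesterol and lipoprotein list is not reported here. The members and lists were chosen with earlier results of these data known. Of 169 list entries, 168 matched the table, directly or through RefSeq names of GRCm38.p6. In simulated counts (5 libraries against 3, 12321 genes tested) 54 of 98 genes with a 2-fold change, 96 of 96 with a 4-fold change and 5 of 12127 unchanged genes were called. Every simulated gene had the same spread between libraries (coefficient of variation 24.8%), and no library was made to stand apart. These shares therefore do not hold for genes of wider spread, and an uncalled exporter was not shown to be unchanged.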

Additional observations from a re-analysis of the deposited data

Results flagged for a closer look

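In 3 of the 10 exporter genes, knockout library 1 lay far above the other knockout libraries relative to the spread of the group. Abcb1b stood at 1.95 CPM there, with the next knockout library at 0.576 CPM. Abcg2 stood at 78.5 CPM against 32.2 CPM in the next. Abca1 stood at 265 CPM against 147 CPM in the next. The rule used would flag about 1 group in 20 if values were independent and normally spread, which was not tested. All 3 flags, from 10 groups examined, fell on the same library, so they are not independent of each other. Knockout library 1 was also the shallowest library and the one with Y-linked reads, so its depth, sex and any other feature of that library cannot be told apart.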

How the results depend on the processing

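With all libraries 28 genes and 0 exporters were called. The number of genes called was 8 with the replicate number as a block, 130 with DESeq2, 1057 with DESeq2 without knockout library 1, 73 with the gene length correction without that library, and 13 to 114 with any single library left out. Exporters called were 0 to 1 with single libraries left out, 1 with no filter on low counts, 1 with DESeq2, 3 with DESeq2 without knockout library 1, and 1 with the length correction without that library. The cause was not tested. Abcb1b was the member called each time, joined by Abcc2 and Abca1 in the fit with 3. The log2 fold change of Abcb1b ran from -3.64 to -2.62 over 16 alternatives, of Abcc2 from -0.93 to -0.61, of Abca1 from -0.71 to -0.30, of Abcb11 from 0.12 to 0.49 and of Abcc3 from 0.17 to 0.49.

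Directions near 0 turned. With single libraries left out Abcb1a ran from -0.22 to 0.22, Abcb4 from -0.17 to 0.066, Abcg2 from -0.32 to 0.25, Abcg5 from -0.17 to 0.62 and Abcg8 from -0.11 to 0.52. With the length correction Abcb1a was at 0.10 and Abcb4 at 0.022. That correction combined with leaving out knockout library 1 was added after seeing the data, and put Abcb1a at 0.33, Abcb4 at 0.067 and Abcg2 at -0.31. With DESeq2 without that library Abcb1a was at 0.20 and Abcg2 at -0.31. The replicate block put Abcg5 at -0.057 and called 0 exporters. Knockout and wild-type libraries of the same number had deviations correlated at 0.12, -0.15 and -0.15, and those of different number at -0.28 to 0.31. The same-number values lay inside that range, so they cannot decide whether libraries of the same number were paired. Without its 2 farthest libraries the correlation of Abcb11 and Abcb4 was 0.073. Depth limits the precision of Abcb1b, at under 10 reads in 4 knockout libraries, and of Abcb1a in knockout library 1, at 7 reads.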
